A study of Mus musculus with 9 samples.

Results

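The shared peaks at gene ends are regions of open chromatin that have a peak in each of the 3 deposited lists, which are named for the study's 3 groups, and that lie at the start or the end of a protein-coding gene. They were taken from a table of 157497 regions. A region on chromosomes 1 to 19 or X was kept if it overlapped by 1 bp or more an interval of each of the 3 deposited peak lists and lay within 1 kb of either limit of a protein-coding gene span in the RefSeq annotation of GRCm38, the assembly of mm10. The rule found 18591 members, 11.8% of the table. The members were thus chosen by the authors' peak calls on these same libraries, so that the members are open is how they were chosen and not a result. Every peak name in the NanogKO:Esrrb:Nanog list carries the code of a NanogKO:Esrrb library, so whether membership rests on peaks called in NanogKO:Esrrb:Nanog is not known.

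The assay was ATAC-seq, in which a transposase cuts and tags accessible DNA, so that the reads falling in a region measure how open it is. All 9 libraries came from mouse embryonic stem cells (ESC) named as Nanog knockouts, grown without further treatment in medium with 10% serum and 1000 U/ml of the cytokine LIF and sorted as PECAM positive and PDGFRA negative. There were 3 libraries each of NanogKO:Esrrb:Nanog, NanogKO:Esrrb and NanogKO. Nanog and Esrrb encode transcription factors of the pluripotency network. NanogKO:Esrrb:Nanog and NanogKO:Esrrb carry the same line name, N{delta}:cE:iN, and NanogKO carries another, N{delta}, so a difference of either group from NanogKO cannot be told apart from a difference between the lines. Each group has a code of its own in the titles (44JN, 44J and 44C6). The labels do not say how the genes were supplied, and they do not say whether replicates were separate cultures, so every p-value measures the spread between these libraries only.

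A gene's promoter, at its start, is where RNA polymerase II and the general transcription factors assemble. In mammals most housekeeping and many developmental promoters lie in CpG islands, stretches rich in G, C and CpG that are usually unmethylated, poor in nucleosomes and bound by widely expressed factors such as SP, ETS, NRF1 and NFY proteins. Tissue-restricted factors such as ESRRB, NANOG, POU5F1 and SOX2 are known mostly for binding distal enhancers. The far ends of genes have no such fixed architecture, and open chromatin there can be an enhancer, an insulator or the promoter of a neighbour.

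The promoters of 7 members named by the results below are printed as examples. They were picked for large changes, high levels or a marker gene, and not as typical members. Gstp3 and Xaf1 had the largest named rises in NanogKO:Esrrb:Nanog against NanogKO among members covering a whole promoter window, defined further on. Miip and Cald1 had the largest such falls. Zfp42 is a pluripotency marker, and Zfp687 and Map3k3 are among the most open members. The 250 bases before each start are given 5′ to 3′ on the gene's strand, from RefSeq's GRCm38.p6, with capitals marking matches to the sequence words listed further on, on either strand.
Gstp3: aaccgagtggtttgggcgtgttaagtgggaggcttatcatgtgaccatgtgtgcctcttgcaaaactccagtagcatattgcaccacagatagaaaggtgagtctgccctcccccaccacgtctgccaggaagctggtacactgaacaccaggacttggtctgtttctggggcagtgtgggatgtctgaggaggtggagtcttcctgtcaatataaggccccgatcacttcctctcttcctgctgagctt
Xaf1: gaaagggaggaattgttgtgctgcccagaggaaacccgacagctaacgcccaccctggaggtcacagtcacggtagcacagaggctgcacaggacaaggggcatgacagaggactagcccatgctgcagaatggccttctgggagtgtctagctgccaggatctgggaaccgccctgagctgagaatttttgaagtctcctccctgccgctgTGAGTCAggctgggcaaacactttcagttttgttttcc
Miip: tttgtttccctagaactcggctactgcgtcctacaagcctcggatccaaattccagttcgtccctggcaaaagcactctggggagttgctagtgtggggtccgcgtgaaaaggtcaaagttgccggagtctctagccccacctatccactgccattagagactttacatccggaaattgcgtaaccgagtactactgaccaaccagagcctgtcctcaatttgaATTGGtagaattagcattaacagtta
Cald1: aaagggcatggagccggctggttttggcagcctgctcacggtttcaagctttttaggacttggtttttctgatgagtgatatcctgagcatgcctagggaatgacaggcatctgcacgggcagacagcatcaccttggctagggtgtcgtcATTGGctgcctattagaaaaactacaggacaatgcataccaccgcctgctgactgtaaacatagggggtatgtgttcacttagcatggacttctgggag
Zfp42: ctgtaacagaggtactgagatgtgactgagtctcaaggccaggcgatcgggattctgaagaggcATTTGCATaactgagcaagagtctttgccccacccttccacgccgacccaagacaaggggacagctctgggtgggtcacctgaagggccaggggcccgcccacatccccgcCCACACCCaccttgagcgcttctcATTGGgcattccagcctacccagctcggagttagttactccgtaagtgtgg
Zfp687: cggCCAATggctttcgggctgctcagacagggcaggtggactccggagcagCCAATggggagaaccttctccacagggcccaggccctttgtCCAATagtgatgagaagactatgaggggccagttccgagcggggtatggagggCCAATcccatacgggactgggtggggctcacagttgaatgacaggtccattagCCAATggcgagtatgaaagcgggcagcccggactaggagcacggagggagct
Map3k3: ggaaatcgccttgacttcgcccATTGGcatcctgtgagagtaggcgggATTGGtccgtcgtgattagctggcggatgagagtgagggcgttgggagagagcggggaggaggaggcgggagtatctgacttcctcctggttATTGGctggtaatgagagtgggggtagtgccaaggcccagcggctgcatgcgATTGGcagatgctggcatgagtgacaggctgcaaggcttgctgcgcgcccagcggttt
Their positions are chr19:4059448-4059697, minus strand for Gstp3, chr11:72301379-72301628, plus strand for Xaf1, chr4:147868720-147868969, minus strand for Miip, chr6:34598254-34598503, plus strand for Cald1, chr8:43307010-43307259, minus strand for Zfp42, chr3:95015458-95015707, minus strand for Zfp687 and chr11:106084337-106084586, plus strand for Map3k3. The Zfp687 stretch holds 5 CCAAT boxes and the Map3k3 stretch 4. The Zfp42 stretch holds an octamer, a CACCC box and a CCAAT box. The Gstp3 stretch holds none of the 13 words and 4 CpGs, against 14 CpGs in the Map3k3 stretch.

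Library totals over the table ran between 35545030 and 58520948 reads. Of 10 ESC marker genes, 9 had a shared peak at a gene end (Dppa4 had none), and these 15 peaks summed to between 395 and 442 CPM in NanogKO:Esrrb:Nanog libraries and 362 and 407 in NanogKO:Esrrb, against 278 and 312 in NanogKO. CPM are counts in a library scaled to the same total, with TMM factors. Gene-end peaks do not define a cell type, since markers of other types had them as well: 4 of 7 primitive endoderm genes (not Dab2, Gata4 or Pdgfra), 3 of 7 fibroblast genes (not Col3a1, Dcn, Lum or Postn), 4 of 7 endothelial and blood genes (not Cdh5, Hbb-bt or Ptprc), 7 of 7 neural genes and 5 of 6 trophoblast genes (not Elf5). The primitive endoderm peaks summed to between 129.6 and 141 CPM in NanogKO:Esrrb:Nanog and 123 and 149 in NanogKO:Esrrb, against 159.95 and 167 in NanogKO. The neural peaks summed to between 209 and 249 CPM in NanogKO:Esrrb:Nanog and 175 and 203 in NanogKO:Esrrb, against 201 and 228 in NanogKO. What these other markers contribute to the results below was not tested. In the peak lists of both NanogKO:Esrrb:Nanog and NanogKO:Esrrb every peak name carries the code of the same NanogKO:Esrrb library, and the lists hold 138118 and 129086 intervals, against 122360 in the NanogKO list.

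Most members sat on gene starts. For genes whose strand was known, 11401 members lay within 1 kb of a start only, 2584 of an end only and 909 of both, and 3697 lay at genes with no strand in the table used. A member lay within 1 kb of the start of 11314 of 17274 genes with a known strand (65.5%). At starts, 69.8% of the 12310 members covered the start itself and their midpoints had a median offset of 158 bp into the gene. At ends, 12.6% of 3493 members covered the end, and the midpoints lay on either side of it. The members had a median width of 806 bp, 865 bp at starts only and 541 bp at ends only, and 1067 of them had starts of genes on both strands within 1 kb. Of all regions at gene ends, 79.8% were shared by the 3 lists, against 51.5% of regions inside genes and 50.7% of regions between genes.

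**Figure D1:**
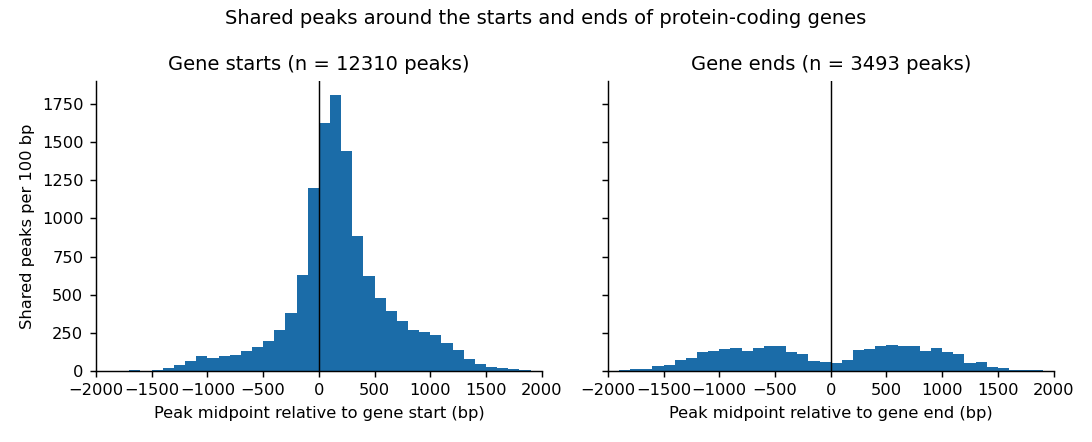
Number of shared peaks per 100 bp by the distance of the peak's midpoint from the nearest gene start (left, 12310 peaks) or gene end (right, 3493 peaks), in bp, with positive distances toward the gene's inside at starts and past the gene at ends. Peaks at starts pile up just inside the gene, with a median of 158 bp, while peaks at ends spread to both sides and dip at the end itself, with 51 peaks in the first 100 bp past it and up to 167 farther out.

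Members held between 34.6% and 38.9% of a library's counted reads. Their share was 38.9%, 37.8% and 35.1% in NanogKO:Esrrb:Nanog and 37.4%, 34.6% and 36.9% in NanogKO:Esrrb, against 38.3%, 37.1% and 37.3% in NanogKO. The groups overlapped, with means of 37.2% ± 1.99 in NanogKO:Esrrb:Nanog, 36.3% ± 1.48 in NanogKO:Esrrb and 37.5% ± 0.643 in NanogKO (SD, n = 3 each). The third NanogKO:Esrrb:Nanog library and the second NanogKO:Esrrb library were the lowest. A member's mean level had a median of 16.3 CPM, against 5.16 CPM for shared peaks inside genes and 4.93 CPM between genes, and per kb of region these were 19.9, 11.3 and 10.9 CPM. Of the 1000 regions with the most reads, 792 were members. Members at starts only had a median of 19.2 CPM and members at ends only 7.14 CPM. The median SD of a member's log2 CPM within a group was 0.151, against 0.227 over all regions.

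**Figure D2:**
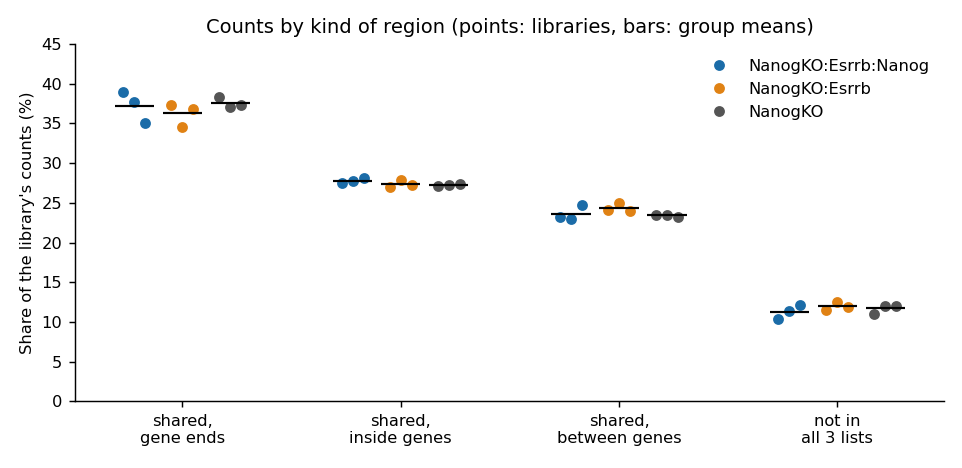
Share of each library's counts, in percent, in shared peaks at gene ends, inside genes and between genes and in regions missing from at least 1 list; points are libraries, bars are means of 3. The shared peaks at gene ends hold between 34.6% and 38.9%, with overlap between the groups, while inside genes all NanogKO:Esrrb:Nanog libraries and between genes all NanogKO:Esrrb libraries lie above all NanogKO libraries.

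The most open members were at Lars2 (mitochondrial leucyl tRNA synthetase), Zfp687 (a zinc finger protein), Map3k3 (a kinase of MAP kinase cascades), the linker histone gene H1f2 and the ribosomal protein gene Rpl3. The peak at Zfp687, chr3:95015403-95016556, had 174, 146 and 128 CPM in NanogKO:Esrrb:Nanog and 143, 119 and 129.7 in NanogKO:Esrrb, against 102, 88.1 and 91.1 in NanogKO. All NanogKO:Esrrb:Nanog and NanogKO:Esrrb libraries were above all NanogKO libraries. The peak at Map3k3, chr11:106083810-106085261, had 137, 129 and 115 CPM in NanogKO:Esrrb:Nanog and 112, 96.8 and 99.9 in NanogKO:Esrrb, against 127, 106 and 112 in NanogKO. NanogKO overlapped both other groups, and NanogKO:Esrrb:Nanog lay above NanogKO:Esrrb without overlap, at 0.30 ± 0.11 (adjusted p = 0.048), a call lost in 11 alternatives at adjusted p of 0.0514 to 0.152. Nothing is known here of the mapping filter, so counts at gene families with near-identical copies, such as histone and ribosomal protein genes and Hspa8, may be shared between copies.

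Promoter sequence was compared over the 300 bases around each gene start in the RefSeq table, 250 before it and 50 after. A member covered the whole window at 7972 starts of 7269 genes, and no region of the table overlapped it at 7237 starts. Covered windows had a median G and C content of 63.3%, against 46.3% in windows with no region, and a median CpG frequency of 0.80 of that expected from their base composition, against 0.18. The 13 words searched on both strands were GGGGCGGGG (GC box of SP factors), CCGGAAGT (ETS), TGACGTCA (cAMP response element), AAGATGGCG (YY1), CCAAT (NFY), TATAAA (the core of the TATA box), CACGTG (MYC-type E-box), TGANTCA (AP-1), TCAAGGTCA (ESRRB), ATGCAAAT (octamer of POU factors), CCACACCC (CACCC box of KLF factors), and words of NRF1 and CTCF. None of these words contains another. The GC box was in 23.1% of covered windows, in 3.10% of windows with no region and in 15.5% of all windows. The ETS word was in 9.27% of covered windows, 0.58% of windows with no region and 5.20% of all. The TATA box ran the other way, with 4.53% of covered windows, 24.7% of windows with no region and 12.7% of all. The CCAAT box was about as frequent in covered windows (40.4%) as in windows with no region (39.7%). The ESRRB word was rare in all of them, with 0.15% of covered windows and 0.34% of all windows. A match is a description of the letters and not of binding.

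Adding Esrrb to cells without Nanog is addressed by NanogKO:Esrrb against NanogKO. Members were tested with the rest of the table in 1 fit (edgeR's quasi-likelihood test, called where the p adjusted by Benjamini-Hochberg was under 0.05 over 157439 tested regions), and all 18591 members passed the filter on low counts. Of the members, 1191 were called higher in NanogKO:Esrrb and 2421 lower, where 37% of all tested regions were called, 20% higher and 17% lower. Past 2-fold there were 134 members higher and 86 lower, where 14.4% of all tested regions were called past 2-fold, 8.37% higher and 6.01% lower. Because the rule leaves out regions without a peak in some group, nothing is read from a member share below these. The members' median log2 fold change was -0.08, against -0.01 over all tested regions. Libraries of a group varied in their member median by a pooled SD of 0.0712 on the log2 scale, close to the size of that median.

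The rises in NanogKO:Esrrb were led by a peak 486 bp from the end of Mog (a myelin protein) and within 1 kb of Zfp57, whose zinc finger protein protects imprinted methylation. That peak, chr17:37011226-37012549, had 29.6, 32.4 and 52.2 CPM in NanogKO:Esrrb:Nanog and 33.4, 27.5 and 34.1 in NanogKO:Esrrb, against 6.61, 4.35 and 7.4 in NanogKO. Every library with added Esrrb was above every NanogKO library, and the log2 fold change ± SE was 2.38 ± 0.18 (adjusted p = 1.7e-10) in NanogKO:Esrrb and 2.64 ± 0.19 (adjusted p = 8.1e-12) in NanogKO:Esrrb:Nanog. A peak 894 bp from a limit of Adprh (ADP-ribosylarginine hydrolase), chr16:38443393-38444505, had 36.3, 36.6 and 42.9 CPM in NanogKO:Esrrb:Nanog and 60.5, 58.5 and 52.3 in NanogKO:Esrrb, against 12.4, 11 and 13.9 in NanogKO. It was highest in NanogKO:Esrrb, at 2.2 ± 0.12 (adjusted p = 1.2e-12) against NanogKO, and lower again in NanogKO:Esrrb:Nanog, at -0.56 ± 0.12 (adjusted p = 0.0011) against NanogKO:Esrrb. Nlrp12, an innate immune receptor gene, had the same order at a peak 85 bp from its end, with 41.6, 35.7 and 43.2 CPM in NanogKO:Esrrb:Nanog and 59.1, 49 and 58 in NanogKO:Esrrb, against 17.7, 14.6 and 17.7 in NanogKO. The others of the 8 named rises were at Tnnt3 (fast muscle troponin T), Bub1b (a spindle checkpoint kinase), Hspb7 (a small heat shock protein of muscle), C130073F10Rik and Dnajb13 with Ucp2, with log2 fold changes between 1.33 and 1.70.

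The falls in NanogKO:Esrrb were led by the start of Cald1, which encodes the actin-binding protein caldesmon. Its peak, chr6:34598238-34598968, holds the stretch printed above and had 11.5, 11.1 and 11.9 CPM in NanogKO:Esrrb:Nanog and 10.8, 10.4 and 13 in NanogKO:Esrrb, against 30.6, 32.7 and 26.5 in NanogKO. Both groups with Esrrb lay below NanogKO without overlap and did not separate from each other, at -1.39 ± 0.12 (adjusted p = 1.4e-09) for NanogKO:Esrrb and 0.02 ± 0.12 (adjusted p = 0.94) for NanogKO:Esrrb:Nanog against NanogKO:Esrrb. The start of Epcam, an epithelial adhesion molecule of ESC, chr17:87635620-87636979, had 19, 17.8 and 16.9 CPM in NanogKO:Esrrb:Nanog and 20.5, 15.6 and 20.7 in NanogKO:Esrrb, against 41.4, 35.5 and 35.5 in NanogKO. Its log2 fold change was -0.98 ± 0.12 (adjusted p = 4.1e-07) in NanogKO:Esrrb, with all libraries below those of NanogKO. The other falls named by the rule were at Golga3 (a golgin), Prss36 (a serine protease), Hspa8 (a constitutive HSP70 chaperone), Slc40a1 (the iron exporter ferroportin), Sesn3 (a sestrin) and Plcxd1, between -1.08 and -0.88.

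NanogKO:Esrrb:Nanog against NanogKO sets Esrrb and Nanog together against neither. Here 3634 members were called higher and 2085 lower, where 49.3% of all tested regions were called, 24.9% higher and 24.4% lower. Past 2-fold, 331 were higher and 203 lower, where 22.4% of all tested regions were called past 2-fold, 11.3% higher and 11% lower. The members' median was 0.06, against -0.01 over all tested regions, and lay within the SD of 0.0712 between library medians of a group. As both comparisons share the NanogKO libraries, their values are given side by side only.

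Several starts opened in steps across the 3 groups. The start of Gstp3 (a pi-class glutathione transferase), chr19:4058568-4059735, had 42.5, 44.4 and 43.3 CPM in NanogKO:Esrrb:Nanog and 23.7, 26.7 and 22.4 in NanogKO:Esrrb, against 12.2, 6.85 and 10.2 in NanogKO. The start of Xaf1 (an interferon-induced partner of the apoptosis inhibitor XIAP), chr11:72301129-72302598, had 31, 33.2 and 27.3 CPM in NanogKO:Esrrb:Nanog and 17.2, 20.3 and 14.4 in NanogKO:Esrrb, against 7.05, 8.01 and 7.6 in NanogKO. Neither start overlapped between any pair of groups. Gstp3 stood at 2.16 ± 0.15 (adjusted p = 4.9e-12) against NanogKO and 0.84 ± 0.14 (adjusted p = 0.00013) against NanogKO:Esrrb, and Xaf1 at 2.01 ± 0.13 (adjusted p = 2.9e-12) and 0.82 ± 0.13 (adjusted p = 5.5e-05). A peak 118 bp from the end of Bub1b, chr2:118641148-118641474, had 36.2, 28.5 and 26.3 CPM in NanogKO:Esrrb:Nanog and 19.4, 20.5 and 17 in NanogKO:Esrrb, against 6.49, 4.59 and 7.4 in NanogKO, again with no overlap between groups. Bub1b stood at 2.3 ± 0.15 (adjusted p = 3.3e-12) against NanogKO. The other named rises, at Hspb7, at Chrnb1 (a muscle acetylcholine receptor subunit) with Zbtb4, at Gm1070 and at Adap1 (an ARF GTPase-activating protein), had log2 fold changes between 1.77 and 2.33.

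The falls in NanogKO:Esrrb:Nanog were led by Hspa8 and Miip. The peak at Hspa8, chr9:40805195-40805772, had 12.4, 10.1 and 19.3 CPM in NanogKO:Esrrb:Nanog and 21.8, 19.8 and 23.1 in NanogKO:Esrrb, against 51.5, 37.2 and 36.2 in NanogKO. NanogKO libraries were all above the rest, at -1.57 ± 0.17 (adjusted p = 1.4e-08) for NanogKO:Esrrb:Nanog. The call against NanogKO:Esrrb, -0.62 ± 0.17 (adjusted p = 0.008), was lost in 1 alternative, with an adjusted p of 0.0765. The start of Miip, an inhibitor of cell migration, lies beside the retrovirus restriction gene Fv1, and its peak, chr4:147868226-147869028, had 13.8, 12.4 and 13 CPM in NanogKO:Esrrb:Nanog and 21.8, 20.4 and 20.8 in NanogKO:Esrrb, against 40.6, 37.6 and 37.2 in NanogKO. The 3 groups were separate, at -1.56 ± 0.11 (adjusted p = 1e-11) against NanogKO and -0.69 ± 0.11 (adjusted p = 8.3e-05) against NanogKO:Esrrb. Cald1, Golga3, Gm50598, Plekhn1 with Klhl17, Slc40a1 and Fggy (a carbohydrate kinase) made up the rest, between -1.38 and -1.14.

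NanogKO:Esrrb:Nanog against NanogKO:Esrrb addresses Nanog on top of Esrrb within 1 named line. Of the members, 3076 were called higher and 557 lower, where 24.6% of all tested regions were called, 12.6% higher and 12% lower. Past 2-fold, 53 members were higher and 28 lower, where 5.52% of all tested regions were called past 2-fold, 1.89% higher and 3.63% lower. The median over members was 0.13, against -0.01 over all tested regions, and libraries of a group varied in their member median by an SD of 0.0712 on the log2 scale. The count of higher members rested on single libraries. It was 1538 without the first NanogKO:Esrrb:Nanog library, 1343 without the second and 5638 without the third, 1676 without the second NanogKO:Esrrb library and 1813 without the third. The count of lower members was 281 without the second NanogKO:Esrrb:Nanog library 315 without the first NanogKO:Esrrb library and 319 without the third.

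The rises with Nanog were led by the start of Adap1. Its peak, chr5:139325293-139326649, had 50.6, 45.7 and 46.2 CPM in NanogKO:Esrrb:Nanog and 23, 26.8 and 20.8 in NanogKO:Esrrb, against 14.7, 13.4 and 13.6 in NanogKO. The groups were separate, at 1.01 ± 0.11 (adjusted p = 1.1e-06) against NanogKO:Esrrb. The start of the voltage-gated sodium channel gene Scn9a, chr2:66634467-66635243, had 29.9, 30.7 and 29.7 CPM in NanogKO:Esrrb:Nanog and 13.1, 17.9 and 16.2 in NanogKO:Esrrb, against 15.1, 13.6 and 13.8 in NanogKO. Scn9a differed by 0.93 ± 0.12 (adjusted p = 5.7e-06) against NanogKO:Esrrb, while NanogKO:Esrrb against NanogKO gave 0.15 ± 0.12 (adjusted p = 0.34) with overlapping libraries. The peak between Crat (carnitine acetyltransferase) and Dolpp1, chr2:30399370-30400308, had 28, 24 and 28.4 CPM in NanogKO:Esrrb:Nanog and 14.1, 15.4 and 15.1 in NanogKO:Esrrb, against 28.9, 24.5 and 25.8 in NanogKO. It was lowest in NanogKO:Esrrb, at -0.83 ± 0.11 (adjusted p = 2.1e-06) against NanogKO and 0.85 ± 0.11 (adjusted p = 1e-05) for NanogKO:Esrrb:Nanog against NanogKO:Esrrb. Chrnb1, Vegfc (a lymphatic growth factor), Gcc2 (a golgin), Camk1d (a calmodulin-dependent kinase) and Hspb7 completed the named rises, between 0.87 and 0.95. The falls were led by the transporter gene Abcc6, whose peak, chr7:45971985-45973709, had 15.3, 16 and 14.8 CPM in NanogKO:Esrrb:Nanog and 26.4, 26.8 and 26.3 in NanogKO:Esrrb, against 17.9, 14.6 and 15.7 in NanogKO. Abcc6 was highest in NanogKO:Esrrb, at 0.72 ± 0.11 (adjusted p = 1.1e-05) against NanogKO and -0.79 ± 0.11 (adjusted p = 2.3e-05) for NanogKO:Esrrb:Nanog against NanogKO:Esrrb. The others were at Fggy, Miip, Phc1 (a Polycomb subunit) and histone genes, between -0.76 and -0.64.

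**Figure D3:**
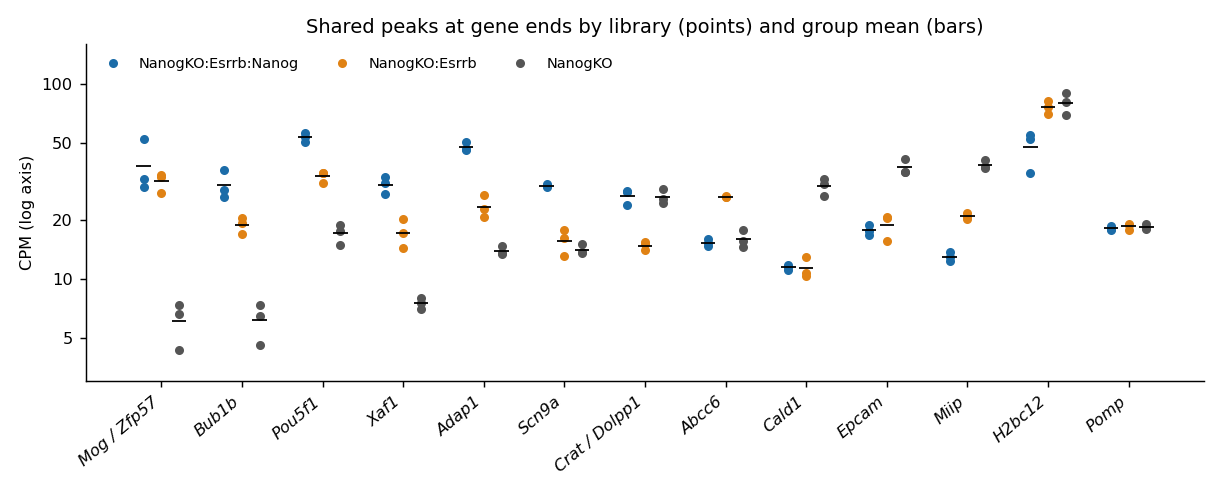
Accessibility in CPM, on a log axis, of 13 named shared peaks at gene ends, with a point for each library and a bar for each group's mean (3 libraries). Cald1 and Epcam are lower in both groups with Esrrb than in NanogKO, Xaf1 is highest in NanogKO:Esrrb:Nanog, between in NanogKO:Esrrb and lowest in NanogKO, Crat is lowest and Abcc6 highest in NanogKO:Esrrb, and Pomp lies between 17.8 and 19.2 CPM in all 9 libraries.

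Changes past 2-fold were counted apart at starts and ends. Among members at starts only, 0.614% were called past 2-fold in NanogKO:Esrrb against NanogKO, 1.68% in NanogKO:Esrrb:Nanog against NanogKO and 0.342% in NanogKO:Esrrb:Nanog against NanogKO:Esrrb. Among members at ends only these shares were 3.44%, 8.28% and 1.04%. The difference between starts and ends was not tested, and the ends had fewer reads. In NanogKO:Esrrb:Nanog against NanogKO, members with a mean log2 CPM of 4 to 5 were called past 2-fold in 1.18% of cases, against 9.21% of shared peaks inside genes and 12.3% between genes at that level. At the limit set by the rule, 23.9% of members over 500 bp from a gene limit were called in NanogKO:Esrrb against NanogKO, against 26% of shared peaks over 1 kb and up to 2 kb away. In no comparison were 10469 members called (56.3%), against 42.2% of shared peaks inside genes and 39.3% between genes. Over all tested regions it was 38.6%, but these include regions without a peak in some group, so nothing is read from that difference. The steadiest of the members called in no comparison, by the range of log2 CPM over 9 libraries, were at Pomp (the proteasome maturation protein), Htra4 with Plekha2, Scamp3 with Clk2, Epas1 (a hypoxia-inducible factor) and Zfp324. The peak at Pomp had 17.9, 18.7 and 18 CPM in NanogKO:Esrrb:Nanog and 18.9, 17.8 and 19.2 in NanogKO:Esrrb, against 18.3, 19.2 and 18 in NanogKO.

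**Figure D4:**
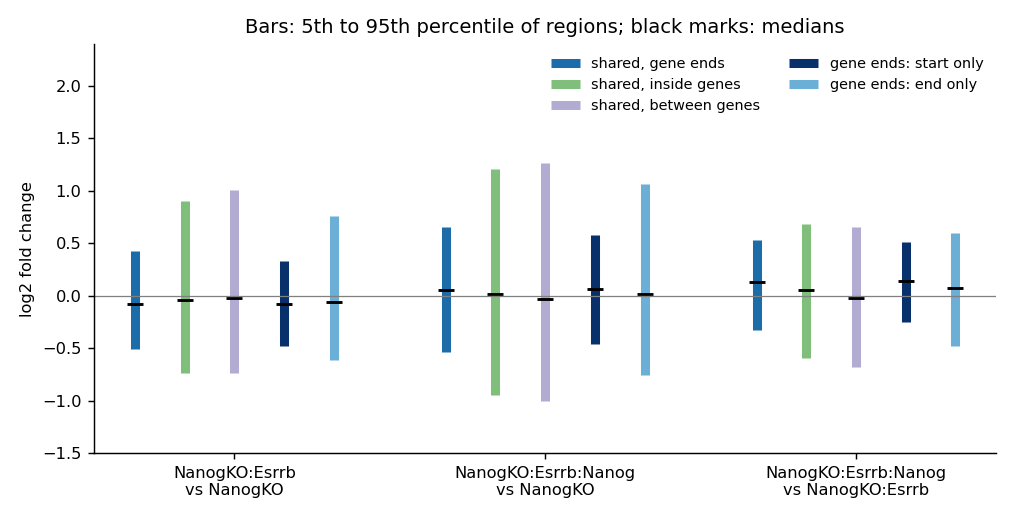
Spread of log2 fold changes in the 3 comparisons, where bars run over the 5th to 95th percentile of regions and black marks are medians. In each comparison the bar of the shared peaks at gene ends is shorter than those inside and between genes, and the bar for ends only is longer than that for starts only.

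The share of called members that were higher varied with the scaling of the libraries. TMM factors taken from the members alone centre the members' own fold changes, so a balance near equal is fixed there by construction. In NanogKO:Esrrb against NanogKO, 33.0% of called members were higher, 31.7% to 34.0% with relative log expression factors, library totals alone or offsets trended on abundance, and 54.4% with TMM over the members. Of all called regions in that comparison 54.1% were higher, and 63.3% with TMM over the members. The members' median lay below that of all tested regions under all 5 scalings, by -0.05 to -0.07 on the log2 scale. In NanogKO:Esrrb:Nanog against NanogKO, 63.5% were higher, and fewer than the lower ones with library totals (42.0%) and trended offsets (38.6%), with 53.4% by TMM over the members. Of all called regions in that comparison 50.5% were higher, 42.2% with library totals and 49.8% with trended offsets. The 42.0% of members with library totals thus stands near the share of all calls. There the members' median minus that of all tested regions was 0.06 to 0.07 under 4 scalings and -0.03 with trended offsets. In NanogKO:Esrrb:Nanog against NanogKO:Esrrb, 84.7% were higher, 58.9% with library totals, 56.7% with trended offsets and 52.6% by TMM over the members, and the median was above 0 under all 5. Of all called regions in that comparison 51.1% were higher, 33.5% with library totals, 54.0% with trended offsets and 30.1% by TMM over the members. Library totals alone moved the median of all tested regions to -0.10 and -0.11 in the comparisons of NanogKO:Esrrb:Nanog with NanogKO and with NanogKO:Esrrb, and TMM over the members moved the last to -0.14. Members called in 1 direction under all 5 scalings numbered 1138 higher (6.12%) and 1541 lower (8.29%) in NanogKO:Esrrb against NanogKO. Over all tested regions these shares were 19.2% and 12.3%. Such members numbered 2404 (12.9%) and 1914 (10.3%) in NanogKO:Esrrb:Nanog against NanogKO, where 20.8% and 21.9% of all tested regions were called so. In NanogKO:Esrrb:Nanog against NanogKO:Esrrb there were 1340 (7.21%) and 489 (2.63%), against 6.40% and 8.69% of all tested regions. The 1340 stand near that share. The named rises and falls above were all called in the same direction under all 5 scalings.

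**Figure D5:**
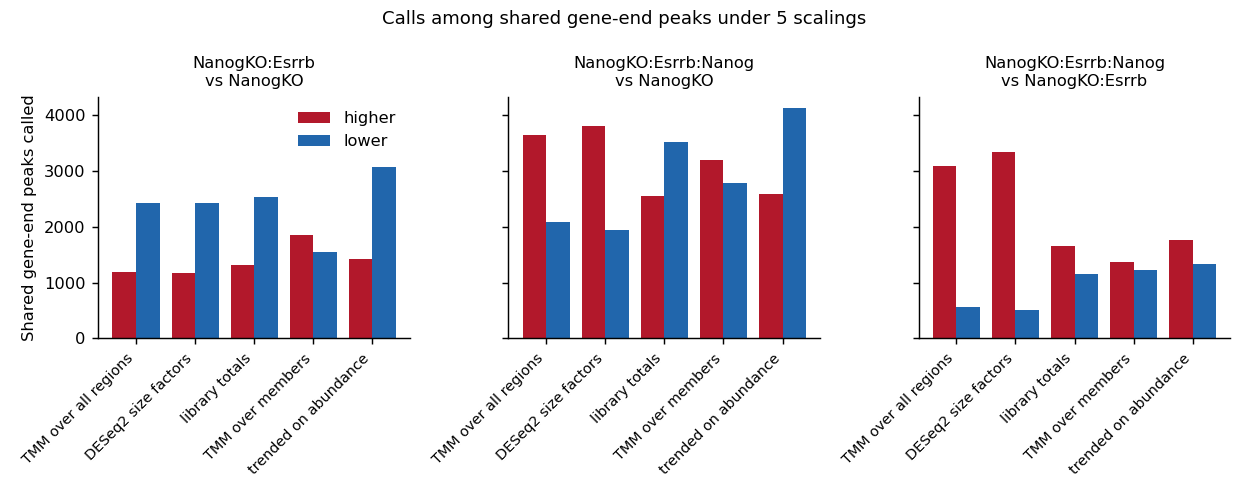
Number of shared peaks at gene ends called higher (red) and lower (blue) in each comparison under 5 scalings of the libraries. The higher bars of NanogKO:Esrrb:Nanog against NanogKO:Esrrb stand at 3076 under TMM over all regions and between 1365 and 1753 under the last 3 scalings.

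Base composition moved with both comparisons of NanogKO:Esrrb:Nanog. In NanogKO:Esrrb:Nanog against NanogKO:Esrrb, members covering a promoter window of up to 50% G and C had a median log2 fold change of -0.09 (231 members), and those over 70% had 0.19 (1381 members). In NanogKO:Esrrb:Nanog against NanogKO the same medians were -0.12 and 0.08, and in NanogKO:Esrrb against NanogKO -0.02 and -0.10. Over 70%, the median log2 CPM was 5.05, 4.97 and 4.70 in the NanogKO:Esrrb:Nanog libraries and 4.81, 4.63 and 4.76 in NanogKO:Esrrb, against 4.90, 4.81 and 4.76 in NanogKO. The first and second NanogKO:Esrrb:Nanog libraries were the highest and the second NanogKO:Esrrb library the lowest. The part of base composition in the calls was not tested.

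Gene groups were read from lists chosen with earlier results of these data known. Beside the counts that follow stand the shares called over all tested regions, which were 20% higher and 17% lower in NanogKO:Esrrb against NanogKO, 24.9% and 24.4% in NanogKO:Esrrb:Nanog against NanogKO, and 12.6% and 12% in NanogKO:Esrrb:Nanog against NanogKO:Esrrb. Of 20 naive pluripotency genes, which mark the ESC ground state, 17 had members, 29 in all. With Esrrb, 11 of the 29 were higher and 3 lower, with Esrrb and Nanog 19 higher and 3 lower against NanogKO, and against NanogKO:Esrrb 11 higher and 2 lower. Their median log2 fold changes were 0.22, 0.47 and 0.27, against -0.01 over all tested regions in each. Under all 5 scalings 11 were higher and 1 lower, 17 and 3, and 8 and 2. Leaving out single libraries gave 8 to 10, 17 to 19 and 6 to 12 higher, the lowest of the last without the first NanogKO:Esrrb:Nanog library, with 7 without the third NanogKO:Esrrb library. A member 980 bp from a limit of Jam2 (an adhesion molecule), chr16:84824867-84825400, had 19.4, 20.01 and 27.6 CPM in NanogKO:Esrrb:Nanog and 15.1, 15.2 and 14.5 in NanogKO:Esrrb, against 3.63, 4.08 and 3.91 in NanogKO. The 3 groups were separate, at 2.53 ± 0.14 (adjusted p = 2.1e-13) for NanogKO:Esrrb:Nanog against NanogKO. A member at Klf5, a Krüppel-like factor that holds cells naive, chr14:99313083-99313378, had 6.32, 11.2 and 8.25 CPM in NanogKO:Esrrb:Nanog and 4.43, 4.49 and 4.28 in NanogKO:Esrrb, against 3.66, 3.97 and 4.4 in NanogKO. Klf5 differed between NanogKO:Esrrb:Nanog and NanogKO:Esrrb by 0.96 ± 0.17 (adjusted p = 0.00026). A member at Prdm14, a repressor of differentiation, fell with Esrrb at -0.35 ± 0.13 (adjusted p = 0.04), a call lost in 6 alternatives at adjusted p of 0.0571 to 0.141. With Nanog it rose at 0.84 ± 0.13 (adjusted p = 8.1e-05) against NanogKO:Esrrb.

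Of 36 members at 19 of 20 general pluripotency genes, 14 were higher and 2 lower with Esrrb, 15 and 2 with both factors, and 5 and 4 in NanogKO:Esrrb:Nanog against NanogKO:Esrrb. With single libraries left out the higher counts ran from 8 to 14, 12 to 16 and 1 to 8, the lowest without the second NanogKO library, the first NanogKO:Esrrb:Nanog library and the first or second NanogKO:Esrrb:Nanog library. Over all tested regions 12.6% were higher in the last comparison, where the 5 of 36 stand near that share. The member 735 bp from the end of Pou5f1, the gene of OCT4, chr17:35509309-35510042, had 56.3, 53.3 and 50.6 CPM in NanogKO:Esrrb:Nanog and 35, 34.9 and 31.1 in NanogKO:Esrrb, against 17.7, 15 and 18.9 in NanogKO. The groups stepped without overlap, at 0.97 ± 0.11 (adjusted p = 2e-07) for NanogKO:Esrrb against NanogKO and 0.67 ± 0.11 (adjusted p = 0.00015) for NanogKO:Esrrb:Nanog against NanogKO:Esrrb. This Pou5f1 member was picked as the list's smallest p with Esrrb, and any other member at Pou5f1 is not described. The start of Sox2 had 49.5, 44.7 and 44 CPM in NanogKO:Esrrb:Nanog and 55, 42.8 and 50.7 in NanogKO:Esrrb, against 38.7, 33.6 and 33.8 in NanogKO. Sox2 was higher with Esrrb at 0.49 ± 0.12 (adjusted p = 0.0015), and NanogKO:Esrrb:Nanog against NanogKO:Esrrb gave -0.10 ± 0.11 (adjusted p = 0.54). The member nearest Nanog's own start, 208 bp away at chr6:122706941-122707281, had 9.91, 9.45 and 8.28 CPM in NanogKO:Esrrb:Nanog and 9.82, 11.1 and 9.38 in NanogKO:Esrrb, against 7.63, 8.6 and 7.7 in NanogKO. Its fold change was 0.34 ± 0.13 (adjusted p = 0.043) with Esrrb, lost in 5 alternatives at adjusted p of 0.0521 to 0.175. The start of Zfp42, whose stretch is printed above, had 28.4, 24.5 and 21.9 CPM in NanogKO:Esrrb:Nanog and 24.5, 18.6 and 19.4 in NanogKO:Esrrb, against 15.2, 14.1 and 15.1 in NanogKO, with every library of the groups with Esrrb above NanogKO. Zfp42 stood at 0.75 ± 0.13 (adjusted p = 1.8e-05) for NanogKO:Esrrb:Nanog against NanogKO. A member 772 bp from the start of Klf4 had 5.58, 6.37 and 4.82 CPM in NanogKO:Esrrb:Nanog and 4.11, 4.51 and 4.84 in NanogKO:Esrrb, against 3.85, 4.65 and 3.51 in NanogKO, at 0.47 ± 0.16 (adjusted p = 0.019) for NanogKO:Esrrb:Nanog against NanogKO, lost in 5 alternatives at adjusted p of 0.0552 to 0.0911. Esrrb itself had no member.

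LIF signals through STAT3. Of 31 members at 19 of 20 LIF and STAT3 target genes, 7 were higher and 3 lower with Esrrb, 18 and 1 with both factors, and 12 and 1 in NanogKO:Esrrb:Nanog against NanogKO:Esrrb, with medians of 0.09, 0.35 and 0.29. The 7 of 31 stand near the 20% of all tested regions called higher with Esrrb, and 24.9% and 12.6% were called higher in the other comparisons. Under all 5 scalings 15 and 1 held for both factors against NanogKO, as did 9 and 1 with Nanog added to Esrrb, and without single libraries the higher counts ran from 14 to 19 and from 5 to 16, the 5 without the first NanogKO:Esrrb:Nanog library. The member 725 bp from the start of Bcl3, a partner of NF-κB, chr7:19823549-19824687, had 52.7, 43.7 and 39.8 CPM in NanogKO:Esrrb:Nanog and 34.4, 36 and 27.7 in NanogKO:Esrrb, against 25, 20.5 and 25 in NanogKO. All NanogKO:Esrrb:Nanog libraries were above all others. The member near Gbx2, a homeobox gene downstream of STAT3, chr1:89926950-89927509, had 18.6, 20.5 and 20.1 CPM in NanogKO:Esrrb:Nanog and 13.5, 14.1 and 13.5 in NanogKO:Esrrb, against 10.6, 11.4 and 11 in NanogKO, at 0.85 ± 0.11 (adjusted p = 6.2e-07) for NanogKO:Esrrb:Nanog against NanogKO. The start of Cish, a STAT feedback inhibitor, had 28.3, 28.5 and 24.5 CPM in NanogKO:Esrrb:Nanog and 18, 19 and 19.4 in NanogKO:Esrrb, against 17.6, 18.8 and 19 in NanogKO, at 0.52 ± 0.11 (adjusted p = 0.0013) against NanogKO:Esrrb.

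Genes of differentiation were called in both directions. Of 47 members at 28 of 30 developmental transcription factors, 1 was higher and 9 lower with Esrrb, 4 and 5 with both factors, and 6 and 0 in NanogKO:Esrrb:Nanog against NanogKO:Esrrb. The 9 of 47 stand near the 17% of all tested regions called lower with Esrrb, and without the second NanogKO:Esrrb library the 9 became 1, without the first NanogKO library 2 and without the second 5. The 6 of 47 stand near the 12.6% of all tested regions called higher in the last comparison. The 6 ran from 2 without the first NanogKO:Esrrb:Nanog library to 12 without the third, with 3 without the second. The start of Pax6, an eye and brain regulator, had 7.55, 7.25 and 8.68 CPM in NanogKO:Esrrb:Nanog and 7.57, 5.79 and 8.23 in NanogKO:Esrrb, against 14.2, 13.7 and 13.4 in NanogKO, at -0.94 ± 0.14 (adjusted p = 5.3e-06) in NanogKO:Esrrb. Of 41 formative and primed pluripotency members, 4 were higher and 8 lower with Esrrb, 8 and 5 with both factors and 8 and 0 in NanogKO:Esrrb:Nanog against NanogKO:Esrrb. The 8 of 41 lower with Esrrb stand near the 17% over all tested regions. The 8 lower became 3 without the second NanogKO:Esrrb library or the first NanogKO library. Without the second NanogKO library they became 4, and without the first NanogKO:Esrrb library 5. The 8 higher in the last comparison ran from 2 without the first NanogKO:Esrrb:Nanog library to 13 without the third, with 3 or 4 without the second or without the first or second NanogKO:Esrrb library. Of 18 primitive endoderm members, 0 and 4, 2 and 2, and 4 and 0 were. The 4 higher became 7 without the third NanogKO:Esrrb:Nanog library and 2 without the first or without any 1 NanogKO:Esrrb library, and the 4 lower with Esrrb became 1 or 2 without the second NanogKO:Esrrb library or the first or second NanogKO library. For the counts of 0 among these 3 lists, DESeq2 also called 0, and 0 members had an unadjusted p under 0.05 in that direction. The start of the hedgehog ligand gene Ihh had 10.6, 10.6 and 7.14 CPM in NanogKO:Esrrb:Nanog and 6.7, 5.23 and 5.01 in NanogKO:Esrrb, against 9.83, 8.23 and 7.52 in NanogKO. It was lowest in NanogKO:Esrrb, at -0.60 ± 0.16 (adjusted p = 0.0048) against NanogKO and 0.74 ± 0.16 (adjusted p = 0.0019) for NanogKO:Esrrb:Nanog against NanogKO:Esrrb. Of 24 germline members, 8 and 1, 9 and 0, and 1 and 1 were called. The 2 named with Esrrb were at Hormad1, in the chromosome 3 stretch described below, and near the end of Zfp42, also a pluripotency marker. Leaving out single libraries gave 6 to 8, 6 to 10 and 0 to 5 higher germline members. The 0 lower became 2 without the first NanogKO:Esrrb:Nanog library. The 0 lower germline members were 2 at an unadjusted p under 0.05 and 0 by DESeq2. The start of Mael, a germline transposon repressor, had 10.5, 10.9 and 7.18 CPM in NanogKO:Esrrb:Nanog and 8.9, 7.65 and 9.41 in NanogKO:Esrrb, against 5.49, 5.79 and 5.27 in NanogKO, at 0.78 ± 0.15 (adjusted p = 0.00014) for NanogKO:Esrrb:Nanog against NanogKO.

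Housekeeping lists were counted in the same way. Of 65 members at cytosolic ribosomal protein genes, 17 were higher and 18 lower with Esrrb, 14 and 15 with both factors, and 7 and 4 in NanogKO:Esrrb:Nanog against NanogKO:Esrrb. The 14 and 15 stand near the 24.9% and 24.4% of all tested regions called. The peak at Rpl13, chr8:123105369-123106146, had 8.15, 7.75 and 13 CPM in NanogKO:Esrrb:Nanog and 13.4, 14.3 and 12.8 in NanogKO:Esrrb, against 25.2, 18.9 and 18.2 in NanogKO, at -1.09 ± 0.16 (adjusted p = 2.1e-06) for NanogKO:Esrrb:Nanog against NanogKO. For 38 mitochondrial ribosomal protein members the counts were 4 and 0, 8 and 2, and 4 and 1. The 0 lower mitochondrial members were 2 at an unadjusted p under 0.05 and 0 by DESeq2. For 33 proteasome members they were 3 and 1, 7 and 1, and 2 and 1. For 44 DNA replication members they were 5 and 1, 11 and 1, and 5 and 1. The 11 of 44 stand near the 24.9% of all tested regions called higher, and the last 5 of 44 near the 12.6%. The member near Mcm7, a subunit of the replicative helicase, and Cops6, chr5:138163073-138163904, had 24.1, 26.1 and 26.5 CPM in NanogKO:Esrrb:Nanog and 17.1, 17 and 16.8 in NanogKO:Esrrb, against 12.5, 12.8 and 12.8 in NanogKO, separate between all groups. For 41 members at RNA polymerase II and general factor genes the counts were 1 and 1, 6 and 3, and 2 and 1. For 36 glycolysis members the counts were 2 and 2, 11 and 3, and 5 and 1, where the 5 of 36 stand near 12.6%. These small counts rested on single libraries. Leaving out the third NanogKO:Esrrb:Nanog library gave the most higher members against NanogKO, with 20 cytosolic ribosomal, 13 mitochondrial, 9 proteasome, 18 replication, 15 RNA polymerase II and 15 glycolysis members, and against NanogKO:Esrrb 9, 10, 6, 16, 9 and 11. The fewest against NanogKO were 9, 5, 7 and 1 for ribosomal, mitochondrial, replication and RNA polymerase II members without the first NanogKO:Esrrb:Nanog library, and 2 proteasome and 9 glycolysis members without the second. Without the second NanogKO library these were 5 mitochondrial, 4 proteasome, 7 replication and 2 RNA polymerase II members. Against NanogKO:Esrrb the fewest were 3 ribosomal, 1 mitochondrial, 1 proteasome, 3 replication, 1 RNA polymerase II and 1 glycolysis member. With Esrrb the 17 became 9 without the first NanogKO:Esrrb library, 11 without the second NanogKO library and 10 without the third, and the 18 became 11 without the first NanogKO library. The member at Gapdh, a glycolytic enzyme, beside Ncapd2, had 19, 16.4 and 16.6 CPM in NanogKO:Esrrb:Nanog and 20.5, 20.5 and 19.5 in NanogKO:Esrrb, against 32, 24.9 and 26.2 in NanogKO, at -0.67 ± 0.12 (adjusted p = 3.1e-05) for NanogKO:Esrrb:Nanog against NanogKO.

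Replication-dependent histone genes are a group added after their peaks appeared among the named falls, so their counts are a description. These genes sit in clusters and are transcribed in S phase to package new DNA. Of 62 such genes 59 had a member, 50 members in all, 41 of them on chromosome 13. Against NanogKO, 31 of the 50 were lower and 1 higher, with a median log2 fold change of -0.43, and against NanogKO:Esrrb 30 were lower and 1 higher, with a median of -0.39, where 24.4% and 12% of all tested regions were lower in these comparisons. NanogKO:Esrrb against NanogKO gave 0 called members under edgeR's test and 0 under DESeq2, with 1 higher and 1 lower at an unadjusted p under 0.05. All 31, and 27 of the 30, were called under all 5 scalings, while leaving out single libraries gave 20 to 36 and 13 to 34 lower members, both fewest without the second NanogKO:Esrrb:Nanog library, and 14 against NanogKO:Esrrb without its first library. Their summed accessibility was 1573, 1190.1 and 1491 CPM in NanogKO:Esrrb:Nanog and 2001.3, 1652 and 1856 in NanogKO:Esrrb, against 2122, 1804 and 1679.8 in NanogKO. The NanogKO:Esrrb:Nanog libraries were all below the rest, the second most of all. The start shared by H2bc12 and H2ac12, chr13:22035022-22036577, had 52.3, 35.1 and 55 CPM in NanogKO:Esrrb:Nanog and 81.3, 69.99 and 76 in NanogKO:Esrrb, against 89.5, 81.1 and 69.4 in NanogKO, at -0.75 ± 0.14 (adjusted p = 5e-05) against NanogKO and -0.67 ± 0.14 (adjusted p = 0.00095) against NanogKO:Esrrb. The copies are near-identical, and how reads were divided between them is not known. The promoter windows of all members lower in this last comparison under all 5 scalings, 147 in number, held CCAAT in 61.9%, against 40.4% of all covered windows, and the octamer in 8.84%, against 1.37%. These windows also held the TATA box in 17.0%, against 4.53%, and the GC box in 6.12%, against 23.1%. Their median G and C content was 52.3%, against 63.3%. The words were picked after all 13 were seen, and no test was made. How many of the 147 windows are near-identical histone copies was not counted.

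Stretches of neighbouring members were looked for along each chromosome. A running median of 25 members along a chromosome that reached 0.35 in size marked 7 stretches in NanogKO:Esrrb:Nanog against NanogKO, 4 in NanogKO:Esrrb against NanogKO and 0 in NanogKO:Esrrb:Nanog against NanogKO:Esrrb. This description was chosen after the data were seen, and no test was made. The stretches were marked by the members' own fold changes, so high counts called in them follow from the rule and are not a result. Over all tested regions, 24.9% were called higher and 24.4% lower in NanogKO:Esrrb:Nanog against NanogKO. In NanogKO:Esrrb against NanogKO these shares were 20% and 17%. The longest run of members, 65 from Mrpl9 to Plekho1 on chr3:94443183-95988532, had 49 higher and 3 lower in NanogKO:Esrrb:Nanog. Its median level per library was 23.1, 22.2 and 19.9 CPM in NanogKO:Esrrb:Nanog and 22, 21.3 and 20.6 in NanogKO:Esrrb, against 15.4, 14.6 and 14.4 in NanogKO. All NanogKO libraries were below all others. The 210 regions of that stretch that are no members had a median of 0.45, with 158 above 0. On chromosome 4 such stretches lay at 98922744-102088715 (19 members, 18 higher), 116626722-118621639 (46, 39 higher) and 141404654-141857886 (18, 10 higher). On chromosome 11 the stretch from Hsf5 to Dgke, chr11:87616728-89061038, had 17 of 20 higher and a median of 0.68, and on chromosome 12 the stretch chr12:15816765-18388500 had 16 of 17 higher. The only lower stretch, chr13:23620875-23757489, is a histone cluster with 7 of 12 members lower, while its 9 regions that are no members had a median of 0.19, with 7 above 0. Members in these stretches numbered 197 in NanogKO:Esrrb:Nanog against NanogKO, 150 of them higher, and 115 in NanogKO:Esrrb against NanogKO, 88 of them higher. Zfp687, Hspb7, Mrpl9, Psmb4, Psmd4, Mcl1 and Hormad1 are among the genes in them. Because NanogKO carries another line name, a stretch that differs from NanogKO and a difference between lines cannot be told apart.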

How the data were processed

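The deposited table held raw read counts per region for 9 libraries, whole numbers with no normalization by the authors. Each group also had a deposited peak list with the authors' score per peak, 13 or higher in every list. Merging the 3 lists gave the 157497 counted regions exactly. The submitters' processing notes name MACS2 2.2.0, bedtools 2.26.0, Bowtie2, cutadapt, deepTools 4.4.0, SAMtools 1.4.1, bcl2fastq 2.19.1 and the build mm10. The tool that counted reads, any shift for the transposase and any removal of duplicates are not given in the sources used here. Coordinates are on mm10, counted from 1.

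The members and the gene lists were chosen with earlier results of these data known. Regions passing filterByExpr were tested with edgeR 4.0.16 (R 4.3.3), with 1 fit of group means over 9 libraries, TMM factors and 6 residual degrees of freedom. Fold changes are log2 with standard errors, and a prior count of 2 went into log2 CPM. Strand came from RefSeq's promoter table, which does not cover every gene or chromosome 18, so some limits are not told apart as start or end. Named are, in each comparison, the 8 largest rises and falls among called members at or above the median level whose libraries do not overlap between groups, with at most 1 per gene. Named too are the 2 called members of smallest p in each of 13 lists, the members nearest the starts of Nanog, Esrrb, Pou5f1, Sox2, Klf4 and Zfp42, and the 5 most open and 5 steadiest members. Not every one of these is described.

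Same-numbered libraries deviated together in NanogKO:Esrrb against NanogKO (r = 0.117 to 0.152) and in NanogKO:Esrrb:Nanog against NanogKO:Esrrb (0.105 to 0.146), but not in all pairs of NanogKO:Esrrb:Nanog against NanogKO (0.002 to 0.136). The pairing comes from these values and not from the labels. On simulated counts with 200 changed regions, 2-fold changes were recovered in 98% of cases for NanogKO:Esrrb against NanogKO over 157334 regions, 98% for NanogKO:Esrrb:Nanog against NanogKO over 157328 and 93% over 157331 for NanogKO:Esrrb:Nanog against NanogKO:Esrrb. The recovery of 1.5-fold changes was 51%, 49% and 36% in these comparisons. Alternatives used DESeq2 1.42.0, other scalings, other limits of the rule, the replicate block, the compared groups alone, no filter and each library left out.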

Additional observations from a re-analysis of the deposited data

How the results depend on the processing

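Counts of members called and their medians were computed again under each alternative. For NanogKO:Esrrb against NanogKO (1191 higher, 2421 lower, median -0.08), TMM over the members alone gave 1847 higher, 1547 lower and a median of -0.0026, and gene starts alone gave 599 higher and 1535 lower. For NanogKO:Esrrb:Nanog against NanogKO (3634, 2085, 0.06), library totals gave 3506 lower and a median of -0.039 and offsets trended on abundance 4118 lower and -0.055. Gene starts alone gave 2353 higher and 1233 lower, and an overlap of at least 50% with each list gave 1179 lower. For NanogKO:Esrrb:Nanog against NanogKO:Esrrb (3076, 557, 0.13), library totals gave 1647 higher, 1151 lower and a median of 0.029, TMM over the members 1365, 1230 and 0.0035, and trended offsets 1753, 1339 and 0.0200. Gene starts alone gave 310 lower and the 50% overlap 208 lower. Past 2-fold in that comparison (53 higher, 28 lower), library totals gave 25 and 46 and TMM over the members 22 and 53. The cause of these moves was not tested. Starts alone and the 50% overlap leave a smaller set of members. With the 50% overlap the share of members called lower fell as well as the count. It was 7.87% in NanogKO:Esrrb:Nanog against NanogKO, where 11.2% of all members were lower. In NanogKO:Esrrb:Nanog against NanogKO:Esrrb it was 1.39%, where 3% of all members were lower. Every other alternative that keeps all libraries stayed within 1.5 times of these counts.

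With each library left out in turn, NanogKO:Esrrb against NanogKO ran from 851 to 1386 higher, 1434 to 3081 lower and medians of -0.11 to -0.04, lowest in lower calls without the second NanogKO:Esrrb library, with 1533 without the first NanogKO library. NanogKO:Esrrb:Nanog against NanogKO ran from 2497 to 5356 higher, 1496 to 2109 lower and medians of 0.01 to 0.12. NanogKO:Esrrb:Nanog against NanogKO:Esrrb ran from 1343 to 5638 higher, 281 to 735 lower and medians of 0.09 to 0.19. Counts past 2-fold, an alternative added after seeing the data, ran from 116 to 154 higher and 73 to 106 lower, from 307 to 401 and 198 to 256, and from 41 to 103 and 19 to 59 in these comparisons in turn. With the replicate block, the counts were 1498 higher and 3147 lower in NanogKO:Esrrb against NanogKO and 4220 and 776 in NanogKO:Esrrb:Nanog against NanogKO:Esrrb, where the numbers were taken to pair. Of 209 calls at named members, 36 were lost under some alternative and none changed sign.

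Small changes were found less surely in simulated counts, and the parts of depth, number of libraries and replicate spread in this were not told apart. Of simulated 1.5-fold changes, 36% to 51% were recovered. The simulation changed only 200 regions, where 24.6% to 49.3% of all tested regions were called in the data. Adjusted p-values are stricter where few regions change, so these rates do not carry over to the data. How surely a 1.5-fold change was found in the data is not known, and a member that was not called may have changed by that much.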

Other observations

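Medians of the members' log2 fold changes varied little between chromosomes. In NanogKO:Esrrb against NanogKO they ran from -0.14 on the X chromosome (545 members) to -0.04 on chromosome 5 (1210 members). In NanogKO:Esrrb:Nanog against NanogKO they ran from -0.01 on the X chromosome to 0.11 on chromosome 15, and in NanogKO:Esrrb:Nanog against NanogKO:Esrrb from 0.10 on chromosome 8 to 0.16 on chromosome 4. Among promoter windows covered by a member, those with the YY1 word had members with a median of 0.02 in NanogKO:Esrrb against NanogKO (232 members), against -0.07 for those without it (6445 members). Those with the GC box had a median of 0.18 in NanogKO:Esrrb:Nanog against NanogKO:Esrrb (1640 members), against 0.12 without it (5166 members). Both words were picked after the medians of 13 words were seen, and no test was made of either difference.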
